A study of Caenorhabditis elegans with 2 samples.

Results

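Genes for the RNA polymerases, for the general factors TFIID and TFIIB and for the Mediator complex were examined in a map of binding by the zinc finger transcription factor LSY-2 in *Caenorhabditis elegans*. They were chosen by name: protein-coding genes with symbols starting rpb-, rpoa-, rpac-, rpc-, taf- or mdt- and a number, together with *ama-1*, *tbp-1*, *ttb-1*, *cdk-8*, *cic-1*, *let-19*, *dpy-22*, *sur-2* and *lin-25*. This gave 67 of the 19985 protein-coding genes of the annotation, of which 22 encode polymerase subunits, 19 encode TFIID subunits or TFIIB, and 26 encode Mediator subunits. The map came from chromatin immunoprecipitation and sequencing (ChIP-seq) of eGFP-tagged LSY-2 in embryos of mixed stage, and comprised 1 group of 2 biological replicates with no comparison group. Both replicates were of strain OP367, which carries the *unc-119* allele tm4063 and the integrated transgene wgIs367. Whole animals of both sexes were pooled, so cells with and without LSY-2 were not separated, and the peaks are those of the tagged transgene product. Possible control libraries are listed in the labels but were not used here, so whether these peaks also arise at active promoters without LSY-2 was not tested. Sequencing depth is unknown from peak lists, and no p-value is given.

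RNA polymerase II transcribes protein-coding genes, RNA polymerase I transcribes the large ribosomal RNA precursor, and RNA polymerase III transcribes transfer RNAs and the 5S ribosomal RNA. TFIID, made of the TATA-binding protein and its associated factors (TAFs), and TFIIB place polymerase II at a promoter, and Mediator links it to sequence-specific factors through head, middle and tail modules and a separable kinase module. The roles given to subunits below are known mostly from their yeast and human counterparts. Many worm genes lie close behind a neighbour on the same strand, some of them in operons that are transcribed from the promoter of the first gene, and many annotated worm 5' ends are trans-splice sites that lie downstream of where transcription starts.

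A gene was counted as having a peak where the summit of a peak lay from 1000 bp upstream to 300 bp downstream of one of its annotated 5' ends. The peaks were the 2568 of the authors' list that passed their threshold on the irreproducible discovery rate (IDR). Each peak carries the authors' own signal value, which serves to rank peaks within that list and has no scale beyond it. The summit and 50 bases to each side of it are shown for 8 of these genes, since these are the stretches at which LSY-2 signal was centred. They are not the strongest peaks: *rpb-3*, *taf-4*, *rpb-10* and *cdk-8*, which rank higher, are left out because of their chromosome, whatever their values, and *mdt-6* and *ama-1* because their windows overlap an annotated UTR. The 8 are the next in rank, from 337 to 849. The sequences are from the RefSeq genome of assembly WBcel235, which is build ce11, and read 5' to 3' on the strand of the gene. Capitals mark matches, on either strand, to the short motifs named after the sequences.
mdt-19 (chrIII:2597207-2597307, plus strand): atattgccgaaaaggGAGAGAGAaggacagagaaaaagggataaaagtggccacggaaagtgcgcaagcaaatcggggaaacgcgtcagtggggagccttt
mdt-26 (chrII:5661070-5661170, plus strand): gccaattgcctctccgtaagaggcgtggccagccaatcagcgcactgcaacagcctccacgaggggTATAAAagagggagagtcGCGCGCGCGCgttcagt
rpb-11 (chrII:14059926-14060026, plus strand): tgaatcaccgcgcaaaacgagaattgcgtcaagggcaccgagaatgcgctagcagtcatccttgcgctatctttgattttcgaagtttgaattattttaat
mdt-22 (chrII:10301101-10301201, plus strand): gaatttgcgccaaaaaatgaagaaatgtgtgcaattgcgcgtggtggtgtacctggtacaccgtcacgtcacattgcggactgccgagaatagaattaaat
mdt-9 (chrIV:13386209-13386309, plus strand): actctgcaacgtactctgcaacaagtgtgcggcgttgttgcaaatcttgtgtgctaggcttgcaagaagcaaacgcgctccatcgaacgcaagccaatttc
taf-12 (chrIII:11870148-11870248, minus strand): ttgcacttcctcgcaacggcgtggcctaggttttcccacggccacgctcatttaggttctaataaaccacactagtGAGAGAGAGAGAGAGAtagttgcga
rpb-6 (chrII:10578998-10579098, plus strand): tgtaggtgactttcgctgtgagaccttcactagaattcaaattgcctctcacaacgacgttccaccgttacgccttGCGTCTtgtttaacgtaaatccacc
rpb-8 (chrIII:4918071-4918171, minus strand): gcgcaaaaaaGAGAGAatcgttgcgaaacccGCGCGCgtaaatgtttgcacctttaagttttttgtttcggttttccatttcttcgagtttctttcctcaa
The windows of *mdt-19*, *taf-12* and *rpb-8* held GAGAGA, those of *mdt-26* and *rpb-8* held GCGCGC, that of *mdt-26* also held TATAAA, and that of *rpb-6* held GCGTCT. Those of *rpb-11*, *mdt-22* and *mdt-9* held none of the 7 short motifs searched.

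Of the 67 genes, 29 had an IDR summit in the window (43.3%), against 2519 of all 19985 genes (12.6%). RNA polymerase genes had one at 12 of 22 (54.5%), Mediator genes at 11 of 26 (42.3%) and TFIID and TFIIB genes at 6 of 19 (31.6%). The 29 genes had 29 different peaks, so no peak was counted for more than 1 of them. Their median signal was 71.3, at a median rank of 917, beside 64.9 and rank 1053 over all genes with a summit. The genes with a peak thus made up a larger share than among all genes, while the strength of their peaks was near that of the others: 4 of the 29 (13.8%) stood among the 250 highest-ranked peaks, beside 14.4% of all genes with a summit.

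**Figure D1:**
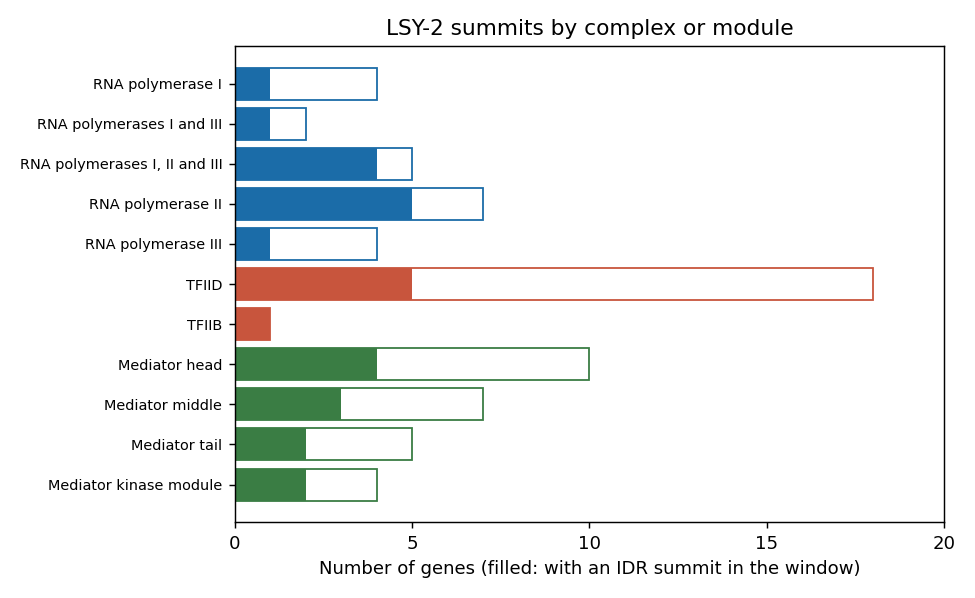
Number of genes in each complex or module (horizontal axis; whole bar) and number with an IDR summit from 1000 bp upstream to 300 bp downstream of a 5' end (filled). The shared polymerase subunits had 4 of 5 and RNA polymerase II 5 of 7, against 5 of 18 for TFIID.

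The subunits used by polymerases I, II and III together had a peak at 4 of 5 genes and those of polymerase II alone at 5 of 7. Subunits of polymerase I alone had 1 of 4, those of polymerase III alone 1 of 4, and those shared by I and III 1 of 2. The highest peak of all 67 genes was at *rpb-3* (WBGene00007971), which encodes an alpha-like subunit on which polymerase II is assembled. It spanned 8728408 to 8728842 of chromosome I, with a signal of 1541 and rank 37, and stood at rank 33 in the list of replicate 1 and rank 38 in that of replicate 2. Its summit lay 121 bp upstream of *rpb-3* and 156 bp upstream of the divergent *pas-4*, an alpha subunit gene of the proteasome core, so that the peak cannot be given to either gene. At *rpb-10* (WBGene00021347), a small subunit common to the polymerases, the peak had a signal of 781 and rank 118, with ranks of 118 and 117 in the replicates. That summit lay 235 bp upstream of *rpb-10* and nearer, at 60 bp, to the divergent gene Y37E3.1.

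The other shared subunits had weaker peaks. At *rpb-6* the signal was 77.5 (rank 786), and here the replicates were far apart, with rank 2171 in replicate 1 and rank 540 in replicate 2. At *rpb-8* it was 74.5 (rank 849), with replicate ranks of 945 and 876, and at *rpb-5* it was 56.8 (rank 1280), with 1510 and 1511. The last 2 genes were therefore ranked much alike in the replicates, and *rpb-6* was not. The fifth shared gene, *rpb-12*, had no peak in the IDR list or in the pooled list from which it was drawn, although each replicate list had one in its window, at rank 1380 with a signal of 28.6 in replicate 1 and at rank 2512 with a signal of 17.8 in replicate 2. These replicate summits lay at positions -306 and -294 from the 5' end of *rpb-12*.

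Among polymerase II subunits, *ama-1*, which encodes the largest subunit with its repetitive C-terminal domain, had a peak of signal 76.8 (rank 794) on chromosome IV from 4247300 to 4247679. Its summit lay 580 bp upstream of the 5' end, and the peak ranked 882 and 907 in the replicates. The same-strand gene upstream, *ttr-20*, lay across a gap of 579 bp, so this summit was at the end of *ttr-20*. The gene of the other large catalytic subunit, *rpb-2*, had no IDR summit, and the best pooled peak in its window had a signal of 19.5 at rank 5104. At *rpb-11*, the alpha-like partner of *rpb-3*, the signal was 125 (rank 427), with replicate ranks of 462 and 393. The stalk subunit genes *rpb-7* and *rpb-4* had signals of 61.1 (rank 1149) and 44.4 (rank 1818). The summit at *rpb-7* lay 30 bp inside its 5' end, 27 bp upstream of the opposite-strand gene Y54E10BR.2. The peak at *rpb-4* was weaker in replicate 1, at rank 3074, than in replicate 2, at rank 1579, and its summit was nearer to *mtch-1*. The gene *rpb-9* had no pooled peak in its window.

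The polymerase I and III genes with a peak stood low in the list. The largest subunit gene of polymerase III, *rpc-1*, had a signal of 46.0 (rank 1730), and replicate ranks of 2618 and 1780. The alpha-like gene *rpac-19*, shared by polymerases I and III, had 44.7 (rank 1800), with replicate ranks of 1772 and 1924. The polymerase I gene *rpoa-2* had 35.6 (rank 2380), with replicate ranks of 2154 and 3249, and its summit lay 672 bp upstream of *rpoa-2* but 195 bp upstream of *prom-1*. None of these 3 had a signal above the median of all genes with a summit. Of the others, *rpoa-1* had a pooled peak at rank 4359, *rpoa-12* at 2959, *rpoa-49* at 10974, *rpc-11* at 11154 and *rpc-25* at 13416, and *rpac-40* and *rpc-2* had none in any of the lists.

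**Figure D2:**
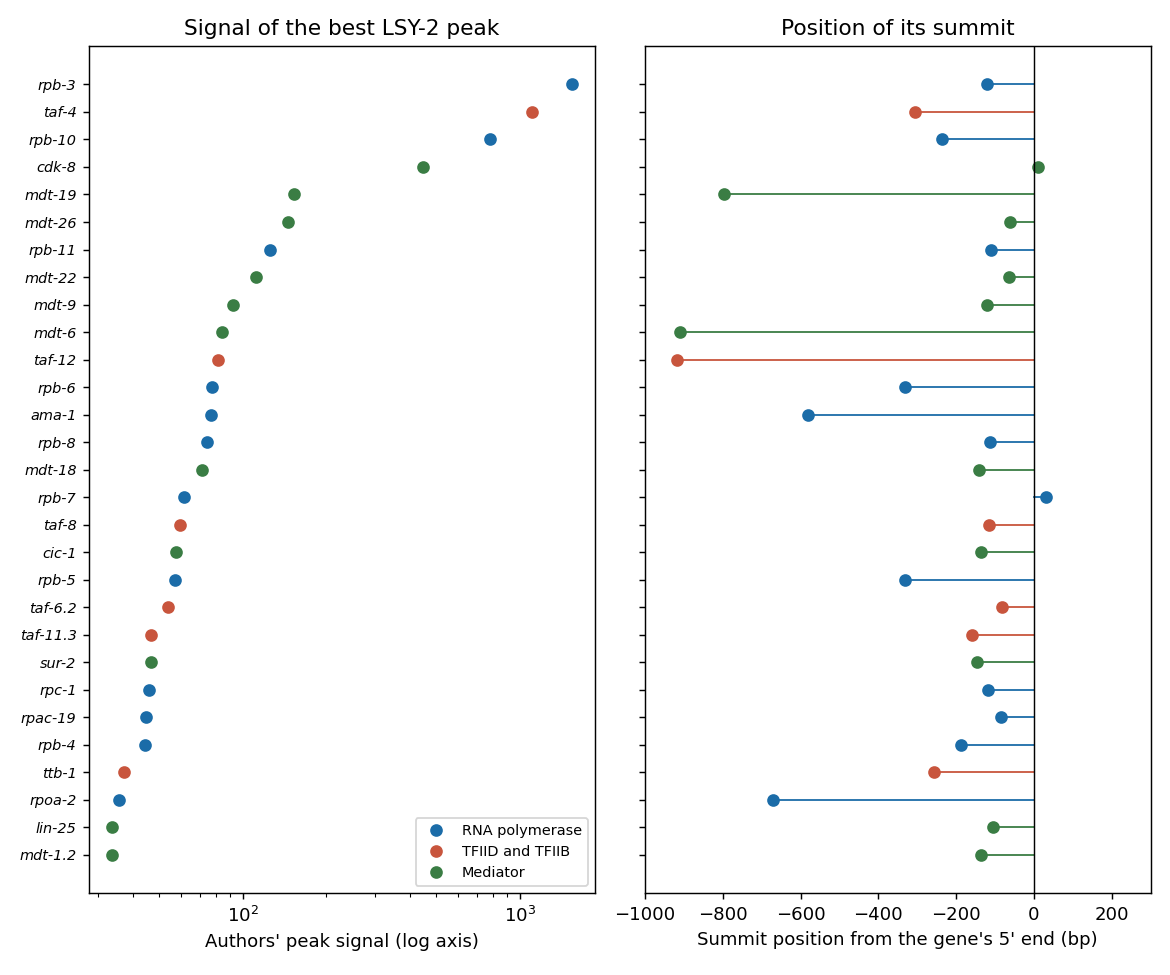
The 29 genes with an IDR summit, ordered by signal: the authors' peak signal on a log axis (left) and the position of the summit from the nearest 5' end of the gene in bp, negative upstream (right), coloured by complex. Signals ran from 33.8 to 1541, and 27 of the 29 summits lay upstream.

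In TFIID the peak at *taf-4* stood far above the rest. It had a signal of 1107 (rank 75) and spanned 382304 to 382740 of chromosome I, with ranks of 71 and 75 in the replicates. *taf-4* encodes a histone-fold TAF that is known to be held outside the nucleus by OMA-1 in the earliest embryos. Its summit lay 306 bp upstream of *taf-4* and 618 bp upstream of the divergent *pqn-59*. The next was *taf-12*, whose product pairs with that of *taf-4*, with a signal of 81.5 (rank 728), replicate ranks of 738 and 821, and a summit 917 bp upstream. The signals were 59.1 at *taf-8* (rank 1207), 53.9 at *taf-6.2* (rank 1390) and 46.6 at *taf-11.3* (rank 1694). For *taf-8* the replicate ranks were 1765 and 916, for *taf-6.2* 1216 and 1768, and for *taf-11.3* 1244 and 2175, so the order of these genes was not the same in the 2 replicates. The summit at *taf-11.3* was nearer to *urm-1*, at 70 bp, than to *taf-11.3*, at 160 bp.

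The gene of TFIIB, *ttb-1*, had a peak of signal 37.1 (rank 2273) on chromosome V, which ranked 2275 in replicate 1 and 3458 in replicate 2. The gene of the TATA-binding protein, *tbp-1*, had no IDR summit, and the best pooled peak in its window had a signal of 8.68 at rank 20421. Some paralogous TAF genes were divided: *taf-6.2* had an IDR summit and *taf-6.1* did not, and *taf-11.3* had one while *taf-11.1* and *taf-11.2* stood at pooled ranks 5884 and 8307. Neither *taf-7.1* nor *taf-7.2* had an IDR summit. *taf-1*, whose product is the large scaffold of TFIID, had a pooled peak at rank 28946. For *taf-3* and *taf-10* the pooled ranks were 3090 and 3216, and for *taf-5*, *taf-6.1*, *taf-7.2* and *taf-9* they ran from 8182 to 20908. No pooled peak had its summit in the windows of *taf-2*, *taf-7.1* or *taf-13*.

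In Mediator, genes with a peak came from every module, with 4 of 10 in the head, 3 of 7 in the middle, 2 of 5 in the tail and 2 of 4 in the kinase module. The highest signal, 446 (rank 176), was at *cdk-8*, the kinase itself, with ranks of 178 and 170 in the replicates. Its summit lay 11 bp inside the 5' end of *cdk-8* and 504 bp upstream of the divergent *tlf-1*, which encodes a relative of the TATA-binding protein. Its cyclin gene, *cic-1*, had a signal of 57.5 (rank 1256), with replicate ranks of 1178 and 1592. The other genes of the kinase module, *dpy-22* and *let-19*, which encode the counterparts of human MED12 and MED13, had no pooled peak in their windows. The list of replicate 2, but not that of replicate 1, had a peak there, at rank 2710 for *dpy-22* and rank 5470 for *let-19*.

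The head genes *mdt-19* and *mdt-22* had signals of 153 (rank 337) and 112 (rank 486). Replicate ranks were 340 and 339 for *mdt-19* and 470 and 527 for *mdt-22*. The *mdt-19* summit lay 796 bp upstream of that gene but 223 bp upstream of the divergent *apb-1*, whereas *mdt-22* was the one gene whose window held its summit. The 5' end of *mdt-22* itself lay inside another gene, *clpp-1*. The head gene *mdt-6* had a signal of 84.1 (rank 699) at a summit 910 bp away, which was nearer to Y57E12AL.1 and Y57E12AL.6, and *mdt-18* had 71.3 (rank 917). The *mdt-18* summit lay inside the gene, 141 bp upstream of the nearest of its 4 annotated 5' ends. With the outermost 5' end alone, *mdt-18* had no summit. Of the middle genes, *mdt-26* had 145 (rank 351), *mdt-9* 92.5 (rank 618) and *mdt-1.2* 33.8 (rank 2537). The *mdt-9* summit lay in the windows of 3 further genes, more than for any other of the 29. The tail genes *sur-2* and *lin-25*, known from Ras signalling in the vulva, had 46.5 (rank 1697) and 33.8 (rank 2534). The tail gene *mdt-15*, known as a regulator of lipid metabolism, had no IDR summit and a pooled peak at rank 26563. Of the other Mediator genes without an IDR summit, *mdt-8*, *mdt-28*, *mdt-27*, *mdt-10*, *mdt-21*, *mdt-17* and *mdt-20* had a best pooled peak at ranks 2827, 8995, 10114, 10351, 15307, 29739 and 29863 in that order. The genes *mdt-4*, *mdt-11*, *mdt-29*, *mdt-30* and *mdt-31* had none in the window.

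Values near the end of the list are shown for the genes on both sides of it. The lowest signal of the IDR list was 33.4, and *lin-25* and *mdt-1.2* were just inside, each with a signal of 33.8 in the pooled list as well. Just outside were *mdt-8*, with a pooled signal of 30.7 at rank 2827, *rpoa-12* with 29.5, *taf-3* with 28.6 and *taf-10* with 27.5. The threshold thus fell between genes of similar pooled signal, such as *mdt-1.2* and *mdt-8*. These genes also differed in the replicates, and whether that bears on the threshold was not tested. *mdt-1.2* had ranks of 3138 and 2826, while *mdt-8* had no peak of replicate 1 in its window and rank 4157 in replicate 2. Of the 38 genes without an IDR summit, 24 had some pooled peak in the window (63.2%), beside 31.7% of all genes without an IDR summit. The pooled list holds 30000 peaks and background regions, per the deposited metadata, so a low rank in it is not evidence of a bound site.

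Replicates were compared through ranks, since each list has its own signal scale. Among the 2568 highest-ranked peaks of replicate 1, 27 of the 67 genes (40.3%) had a summit, against 12.2% of all genes. In replicate 2 they were 29 of 67 (43.3%), against 12.4% of all genes. Of the 29 genes with an IDR summit, 25 had one among the top peaks of replicate 1, 26 among those of replicate 2 and 23 among both (79.3%, beside 78.2% of all genes with an IDR summit). Those that missed in 1 or both replicates were *rpb-4*, *rpc-1*, *rpoa-2*, *ttb-1*, *lin-25* and *mdt-1.2*, all of them with a signal of 46.0 or less. The IDR list was made from these same replicates, so the agreement is partly set by how peaks were chosen.

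**Figure D3:**
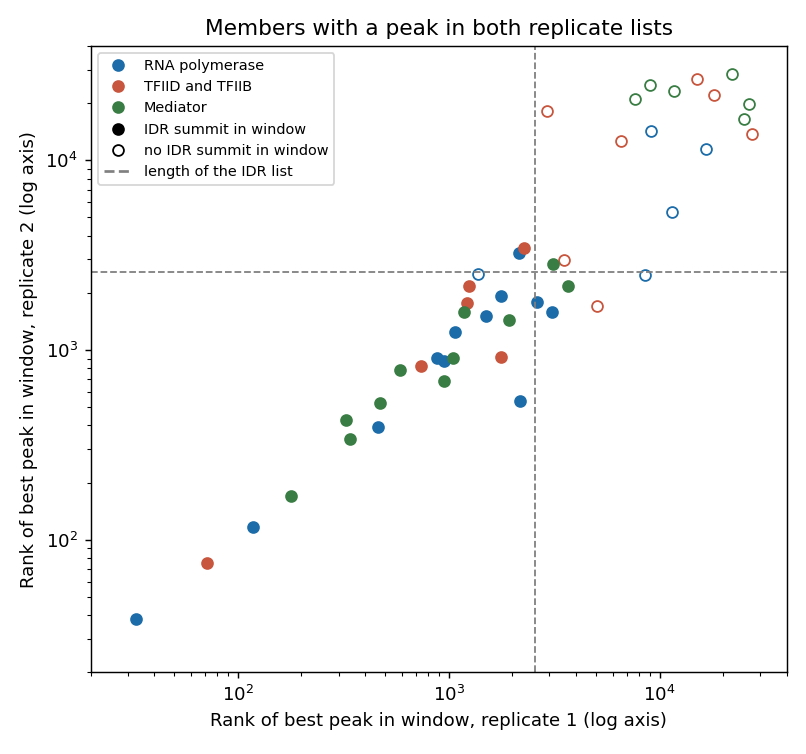
Rank of the best peak in the promoter window in replicate 1 (horizontal, log axis) and replicate 2 (vertical, log axis) for genes with a peak in both lists, filled where an IDR summit lay in the window; dashed lines mark the 2568 peaks of the IDR list. Ranks of *rpb-3*, *taf-4*, *rpb-10* and *cdk-8* lie close to each other in the replicates, *rpb-6*, at 2171 and 540, lies furthest from equal ranks among the filled points, and the open point inside both lines is *rpb-12*.

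Summits of the 29 genes lay close to the 5' end, at a median of 135 bp upstream (position -135), beside -225 over all genes with a summit. With a window of 2000 bp upstream and 500 bp downstream, these medians were -235 and -286. In the main window the median was -154 for polymerase genes, -135 for Mediator genes and -208 for TFIID and TFIIB genes. It was -180 for other genes of the transcription machinery and -187 for proteasome subunit genes, so nearness was not particular to the 29. Of the 29, 17 (58.6%) had it within 200 bp upstream, beside 40.7% of all genes with a summit. For *taf-12*, *mdt-6*, *mdt-19*, *rpoa-2* and *ama-1* it lay more than 500 bp upstream. Of the 29 best summits, 20 (69.0%) also lay in the window of another gene, beside 59.2% for all genes with a summit. This rests on the width of the window: with 500 bp upstream and 100 bp downstream it was 9 of 24 (37.5%), below the 50.1% of all genes with a summit there. In 8 of the 29 the 5' end of another gene was nearer. With each summit given only to its nearest 5' end, 21 of the 29 kept one, beside 1767 of the 2519 among all genes. The 9 genes whose summit lay in no other gene's window were *mdt-22*, *taf-12*, *ama-1*, *taf-8*, *rpb-5*, *sur-2*, *ttb-1*, *lin-25* and *mdt-1.2*.

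The share of genes with a summit was set out by their placement beside the nearest gene upstream, with no test. Among genes divergent from a neighbour within 1000 bp, 11 of 13 had a summit (84.6%), beside 35.2% of all genes so placed. The exceptions were *rpb-12* and *taf-7.2*. Among those with an upstream neighbour on the same strand within 500 bp, 5 of 25 had one (20%), beside 8.87% of all such genes, and these were *mdt-6*, *rpac-19*, *rpb-5*, *rpb-8* and *sur-2*. This close same-strand placement held 37.3% of the 67 genes and 17.7% of all genes. In each of the 5 placements the share with a summit was higher among the 67 genes than among all genes, as the plot of shares by placement shows.

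**Figure D4:**
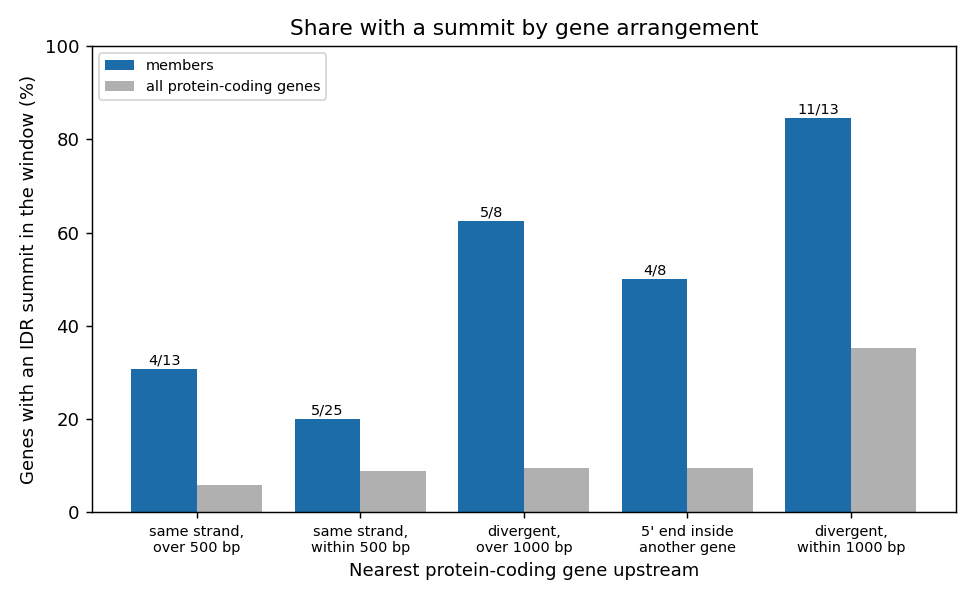
Share of genes with an IDR summit in the window (vertical axis, %) by the position of the nearest protein-coding gene upstream, for the polymerase, TFIID, TFIIB and Mediator genes (blue, with counts) and for all protein-coding genes (grey). The share was 84.6% for close divergent genes and 20% for genes close behind a same-strand neighbour, against 35.2% and 8.87% of all genes.

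For the 20 genes without a summit that lay close behind a same-strand neighbour, the first gene of the run was looked up, a run being genes of 1 strand with gaps of at most 500 bp. That first gene had an IDR summit in 9 of the 20 runs (45%), beside 27.3% for all genes without a summit that lay in such a run. The strongest was in the run of *tbp-1*, where the first gene, T20B12.3, had a peak of signal 517 (rank 156) at 149 bp upstream. That peak also lay in the window of the divergent *hmg-4*, which encodes a subunit of the FACT histone chaperone. For *mdt-11* the first gene was *wip-1*, with a signal of 198 (rank 275), for *rpac-40* it was *algn-5* (rank 761) and for *rpc-2* it was *hach-1* (rank 940). The remaining 5 were *mdt-17* behind *prmt-1* (rank 1359), *mdt-8* behind Y62F5A.12 (rank 1398), *taf-9* behind *mlc-5* (rank 1420), *mdt-10* in the run of *cec-3* (rank 1965) and *rpoa-12* behind *rrsr-1* (rank 2108). With the first gene of the run counted as well, 38 of the 67 genes (56.7%) had a summit, against 17.0% of all genes. The runs were built from gene positions, and whether they are operons was not tested.

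The genes *rpb-2*, *rpb-9*, *mdt-4*, *mdt-15*, *mdt-27*, *taf-2*, *taf-6.1*, *taf-13*, *rpc-25*, *mdt-28* and *mdt-30* had no summit of their own and lay in runs whose first gene had none. The runs of *mdt-28* and *mdt-30* held a summit at another gene. Over all 38 genes without a summit, the nearest IDR summit lay within 2000 bp for 8 and over 10000 bp away for 15. It was 122569 bp away for *taf-3* and 100047 bp for *taf-7.1*, both on X, where 6.55% of all genes had a summit. The like distances over all genes without a summit are not given here, so these counts have no share beside them. The gene *mdt-27* had a summit 940 bp downstream of its 5' end, of rank 1396, inside the gene, and *mdt-26* had a further one of rank 781 inside the gene.

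By chromosome, genes on I had a summit most often, at 9 of 13 (69.2%), beside 20.4% of all genes there. They were 6 of 14 on II (42.9%, beside 12.9%), 6 of 16 on III (37.5%, beside 20.9%) and 4 of 8 on IV (50%, beside 12.1%). On V they were 3 of 11 (27.3%, beside 7.01%) and on X 1 of 5 (20%, beside 6.55%), the last being *mdt-1.2*. The 4 highest-ranked peaks, at *rpb-3*, *taf-4*, *rpb-10* and *cdk-8*, were all on I. Counts on each chromosome are small.

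Other genes of the transcription machinery had a summit at 21 of 42 (50%), with a median rank of 1504. The highest were at *elof-1*, an elongation factor gene, with a signal of 2008 (rank 15), at the cyclin K gene *ccnk-1*, with 1236 (rank 61), and at *snpc-3.4*, a gene of the complex that acts at small nuclear RNA promoters, with 1117 (rank 73). The kinase genes *cdk-7*, *cdk-9* and *cdk-12* had ranks of 455, 1975 and 2238, and the elongation factor genes *spt-4* and *spt-5* had 1289 and 1439. Of the TFIIE genes, *gtf-2E2* had a peak (rank 2364) and *gtf-2E1* none, and *gtf-2F1* and *gtf-2F2* of TFIIF had none. The listed TFIIH genes other than *cdk-7* that were matched in the annotation had none: *gtf-2H1*, *gtf-2H3*, *gtf-2H4*, *gtf-2H5*, *xpb-1*, *xpd-1*, *cyh-1* and *mnat-1*. The listed *gtf-2H2* matched no symbol and was not assessed. The gene of the large TFIIA subunit, *pqn-51*, had one at rank 972, and that of the small subunit, *gtf-2A2*, had none. Proteasome subunit genes, another set for the parts of a large complex, had a summit at 27 of 33 (81.8%), with a median rank of 891. The share for polymerase, TFIID, TFIIB and Mediator genes was thus above that of all genes but not above either of these lists, and no list was tested against another. The lists do not hold separate peaks. The peak of rank 176 counted for *cdk-8* and *tlf-1*, that of rank 37 for *rpb-3* and *pas-4*, and that of rank 1662 for both *cit-1.1* and *cit-1.2*.

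Within 50 bp of the 29 summits the median GC content was 42.6%, from 31.7% to 62.4%, beside 46.5% over all IDR summits and 31.7% over windows of the same length that end at the 5' end of every gene. Of the 7 motifs, each searched as spelled and as its reverse complement, GCGCGC was in 5 of 29 windows (17.2%), beside 9.07% of all IDR summits and 1.1% of the 5' end windows. The 5 were at *mdt-26*, *rpb-8*, *sur-2*, *taf-6.2* and *ttb-1*. TATAAA was in 4 (13.8%, beside 4.91% and 19.5%), namely *lin-25*, *mdt-26*, *rpc-1* and *taf-4*, and GAGAGA in 4 (13.8%, beside 22.7% and 8.8%), namely *mdt-19*, *rpb-8*, *sur-2* and *taf-12*. GCGTCT was in 1 (3.45%, beside 13.6% and 2.49%), at *rpb-6*. CCGCCC was in that of *rpb-4* and TTCCCG in that of *taf-6.2*, and CACGTG was in none of the 29. With 29 windows, 1 window is 3.45%, and these shares are a description. The centre of the window lay in soft-masked sequence, which marks repeats and low complexity, for 9 of 29 summits (31.0%). It did so for 565 of all 2568 IDR summits and for 6931 of the 19985 windows at 5' ends (34.7%).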

How the data were processed

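ChIP-seq peaks of eGFP-LSY-2 came from 2 biological replicates in 1 group, with lsy-2 as the antibody target per the labels. Per the deposited metadata, the authors made lists of peaks and background for each replicate and for both pooled, 30000 peaks each, and derived the IDR list of 2568 from them. The lists for build ce11 were used, and those for ce10 were not. For the aligner, the peak caller and the IDR threshold, the names and settings were not given in the sources used here. The deposited signal value of each peak is the authors' and ranks peaks within 1 list. The deposited summit offset from the peak start is another column, in bp.

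Summits were assigned to the 5' ends of all protein-coding transcripts of Ensembl annotation release 115 (WBcel235). A peak was the best of a gene where it had the highest signal in the window, and every peak ended within its chromosome. Every gene of the group is named or counted. So are partners that share a summit, heads of runs, and genes of a listed set of further factors. That set had 43 genes, of which 42 were matched and *gtf-2H2* was not. The genes, roles and lists were chosen with earlier results of these data known. Counts and medians stand beside those of all genes, and no test was made. The assignment was checked on simulated summits, but no values of that check are given here. The 10 alternatives were other windows, the outermost 5' end, the peak midpoint, overlap, nearest gene, the 1284 strongest peaks, 5136 pooled peaks and each replicate alone. Python 3.11.15, numpy 2.4.6, pandas 2.3.3 and matplotlib 3.10.9 were used.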

Additional observations from a re-analysis of the deposited data

How the results depend on the processing

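Of the 67 genes, 29 had a summit. The count was 24 (against 10.4% of all genes) with windows reaching 500 bp upstream and 100 bp downstream, and 35 (15.9%) with 2000 and 500 bp. It was 28 (12.1%) with the outermost 5' end, where *mdt-18* left, and 29 with peak midpoints (12.6%) or overlap (13.4%). It was 21 (8.84%) with each summit given to its nearest 5' end and 35 (18.1%) with the 5136 highest pooled peaks. With the 1284 strongest IDR peaks the count fell to 19, and that of TFIID and TFIIB genes from 6 to 3, since fewer peaks were used. The share of all genes was 7.35% there. With 1 replicate alone the count ran from 27 (12.2%) to 29 (12.4%). Without replicate 1, *rpb-12*, *rpoa-1* and *taf-3* entered and *mdt-1.2*, *rpoa-2* and *ttb-1* left. Without replicate 2, *rpb-12* and *rpoa-12* entered and *lin-25*, *mdt-1.2*, *rpb-4* and *rpc-1* left. The median position was -235 with the longer window, beside -286 over all genes, and ran from -168 to -133 with 1 replicate alone. The number of shared summits was 9 with the shorter window (37.5% of 24, beside 50.1% of all genes with a summit) and 0, by construction, with the nearest 5' end. In every setting tried, 11 genes had a summit: *cdk-8*, *cic-1*, *mdt-22*, *mdt-26*, *rpb-3*, *rpb-5*, *rpb-6*, *rpb-8*, *rpb-11*, *taf-4* and *taf-8*. In none of them did 26 genes, among them *tbp-1*, *taf-1*, *mdt-15* and *dpy-22*. The like counts over all genes are not given here, so whether 11 and 26 are unusual cannot be told. No paired analysis was possible because there is 1 group. Depth is unknown, so what it limits was not assessed.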

Other observations

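Windows at the summits of several of these genes held the same longer words. A search for 10-base words present in at least 3 of the 29 windows, on either strand, was made after the sequences had been seen and is a description. It gave 7 words, which fell into 3 sets of genes. ACGACACTCC was in the windows of *rpb-3*, *cic-1*, *rpc-1* and *ttb-1* (13.8%), beside 1.99% of all IDR summits and 0.13% of the windows that end at a 5' end. GGCGAGACCC was in those of *ama-1*, *rpoa-2* and *taf-4* (10.3%), beside 1.87% and 0.125%. AGTCCGCAAA was in those of *cdk-8*, *mdt-18* and *mdt-1.2* (10.3%), beside 1.6% and 0.055%. Words chosen because they recur in these windows must be more frequent there than elsewhere, so the shares support nothing. For the set of *rpb-3*, the windows of the other members are shown with the shared stretch in capitals, on the strand that carries it as written, which is opposite to the gene for *rpc-1*. They are from RefSeq, assembly WBcel235 (ce11).
cic-1 (chrIII:2401306-2401406, minus strand): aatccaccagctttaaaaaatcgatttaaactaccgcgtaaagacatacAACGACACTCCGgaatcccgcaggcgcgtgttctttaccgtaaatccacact
rpc-1 (chrIV:7165817-7165917, plus strand): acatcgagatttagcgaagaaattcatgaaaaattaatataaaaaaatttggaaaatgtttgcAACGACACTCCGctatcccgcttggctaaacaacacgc
ttb-1 (chrV:156513-156613, plus strand): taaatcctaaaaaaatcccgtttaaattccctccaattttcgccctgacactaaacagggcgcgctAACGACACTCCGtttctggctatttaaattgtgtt

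The gene *rpb-12*, with a peak in both replicates and none in the pooled list, was 1 of several such cases. Of 1911 top peaks of replicate 1 that overlapped a top peak of replicate 2, 20 were overlapped by no pooled peak and 37 by no IDR peak. Among those 20, the one at *rpb-12* had rank 1380 in replicate 1. The sources used here do not say why these regions are missing from the pooled list. The comparison was made after the values at *rpb-12* had been seen.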
